A study of Sorghum bicolor with 63 samples.

Results

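A group of 169 sorghum genes, of 35567 listed, was selected on its measured course in the primary root during nitrate deprivation and after nitrate was returned. On group means of log2(TPM + 1), where TPM is a read count per transcript length scaled to a fixed library total, each gene had to be more than 1.2 higher at 24 h than at 0 h, more than 1 lower at 48 h than at 24 h, and less than 1 away from 0 h at 0.5 h. The 3 libraries of 24 h had to lie above the 3 of 0 h, and the mean at 24 h had to reach 5 TPM. A total of 172 genes met these conditions, of which 3 belong to the high-affinity nitrate uptake system and were left out, together with the remaining gene of that system (SORBI_3004G009500 and SORBI_3004G009400, both named NRT2.1 in the study's network, NRT2.5, SORBI_3003G270800, and NAR2.1, SORBI_3004G202400). The primary root levels at 0 h, 0.5 h, 24 h and 48 h therefore describe the choice and were not tested. Over all 23186 genes with enough signal in the primary root, the libraries of 24 h lay above those of 0 h for 13.0%, and nothing is read from this share.

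The plants were Sorghum bicolor of the inbred line BTx623, grown in hydroponics with sufficient nitrate and then moved to a solution without nitrate salts. The methods of the study name chloride salts as the replacements, and the labels and the methods differ on the nutrient solution. Primary root, lateral root and leaf were sampled in normal nitrogen (0 h), after 0.5, 3 and 24 h of nitrogen deprivation, and in nitrogen recovery at 24.5 h and 48 h, after nitrate had been returned at 24 h. A seventh group is labelled nitrogen recovery control at 48 h and is called the 48 h control here. Each group had 3 libraries, 63 in all, and per the labels each was made from tissue pooled over 5 plants, and the methods of the study state a pool of more plants for each time point. The sample names give the last sampling as 48 h and the protocol as 24 h plus 48 h, and the labels do not say how the control plants were fed, so the 48 h control is used only by its name. The samples of 0, 24 and 48 h are whole days apart and those of 0.5, 3 and 24.5 h are not, so time of day and nitrate treatment cannot be told apart for the latter.

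Nitrate is taken up by root cells through low-affinity and high-affinity transporters, reduced to nitrite and then ammonium, and built into glutamine and glutamate. Roots read nitrate both directly, through a rapid transcriptional response, and indirectly, through the nitrogen status of the plant. Genes that follow nitrogen status typically change over hours of starvation, and many of those that rise encode transporters or enzymes that recover nitrogen from older tissue. Most of the 169 genes carry no name in the files or in the study's tables, and none matched the reference gene table used here. They are given by their identifiers, with a role only where the study names or describes the gene.

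Some libraries stood apart. The lateral root 0 h replicate 1 resembled leaf, with a correlation of 0.731 to its own group and 0.994 to a leaf library of the 48 h control. The light-harvesting gene LHCB5 stood at 4281 TPM in it, against at most 56.6 in the other 20 lateral root libraries, and the root gene NAR2.1 at 0.126 TPM, against at least 49.1. Of the 169 genes, 63 were listed at 0 in that library. The primary root 24.5 h replicate 3 had 30736 genes at 1 TPM or more, against at most 21917 in any other library, and LHCB5 at 268 TPM, against at most 133 in the other 20 primary root libraries. PPDK2, a pyruvate orthophosphate dikinase of C4 leaves, moved alike, at 15520 TPM in the former library (at most 131 in the other lateral root libraries) and 1398 TPM in the latter (at most 402). PEPC6, the last leaf gene looked at, was higher in roots than in leaf. It stood at 14.6 TPM in the former library, within the 8.24 to 20.8 TPM of leaf and below the 53.2 to 159 TPM of the other lateral root libraries, and at 53.6 TPM in the latter, within the range of primary root. The leaf 48 h control replicate 1 had the lowest LHCB5 of all leaf libraries (1028 TPM) and a correlation of 0.968 to its group. The 3 primary root libraries of 24.5 h were less alike than those of the other primary root groups. Their correlations to their own group were 0.961, 0.952 and 0.937 (replicates 1, 2 and 3), against at least 0.980 in the other primary root libraries. Replicate 1 was nearest to a lateral root library of 24.5 h, at 0.984. Counts that rest on these libraries are given with and without them, and results in the lateral root share the spread estimated over all its groups, including 0 h. The depth of the libraries is unknown, because TPM keep no read totals.

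In the primary root the genes were expressed at low to moderate levels with nitrate present and were, as chosen, higher by 24 h without it. The median gene had a mean of 7.18 TPM before the transfer and of 6.20 TPM after 0.5 h, 11.8 TPM after 3 h and 24.9 TPM after 24 h without nitrate. It stood at 17.9 TPM in the 24.5 h group, 7.57 TPM in the 48 h group and 7.80 TPM in the 48 h control. In these tissue samples, more cells of a type and more RNA per cell cannot be told apart. At 24 h the means ran from 5.09 to 446 TPM, and 30 genes reached 100 TPM. The genes together took 0.275 to 0.312% of all TPM in the libraries of 0 h, 0.832 to 1.13% at 24 h, 0.664 to 0.942% at 24.5 h and 0.316 to 0.333% at 48 h. The 48 h control libraries held 0.302 to 0.420%. The median difference of 24 h from 0 h, which the choice fixed from below, was 1.62 on the log2(TPM + 1) scale, with a highest value of 4.02.

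**Figure D1:**
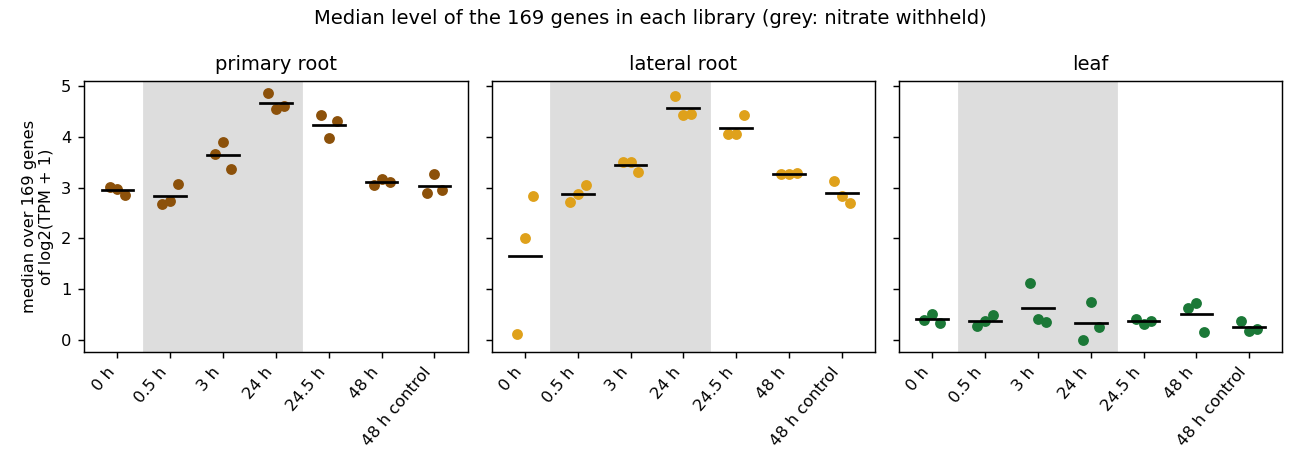
Median over the 169 genes of log2(TPM + 1) in each library (points) and the mean of the 3 libraries (bars), by group, in primary root, lateral root and leaf, with the groups without nitrate on grey. In primary root the libraries of 24 h sit at 4.55 to 4.86 and those of 48 h at 3.05 to 3.16, and the lateral root follows this course apart from 1 library of 0 h at 0.118.

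The levels at 3 h and 24.5 h were not conditions of the choice, but the percentages that follow also rest on the 0 h and 24 h levels, which were, so they are a description only. Expressed as a percentage of each gene's difference between 24 h and 0 h, the level at 3 h had a median of 32.2%, with the middle of the genes between 13.4 and 49.5%. At 3 h, 34 genes were below 10%, 42 genes were at 50% or more, and 7 genes had already reached or passed their level of 24 h. The label of the group calls its response slow, and these 7 genes were as high at 3 h as at 24 h. At 24.5 h, 0.5 h after nitrate was returned, the median gene kept 73.3% of the difference, 42 genes were at or above their level of 24 h and 37 had less than 50% left. The lowest of these values are ratios to each gene's own difference and reach -100% at 24.5 h for a gene below its 0 h level.

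**Figure D2:**
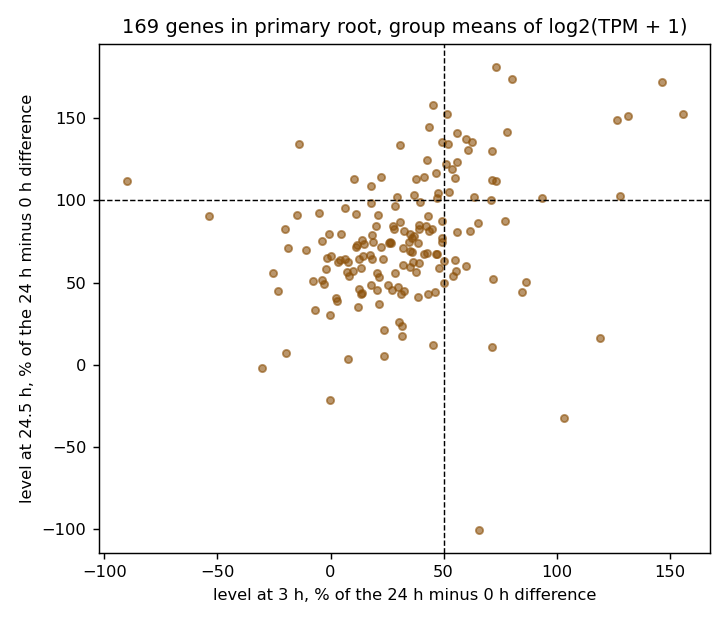
Level at 3 h (x axis) and at 24.5 h (y axis) of each of the 169 genes in primary root, as a percentage of its 24 h minus 0 h difference of group means of log2(TPM + 1), with broken lines at 50% on x and 100% on y. The points spread from -90.0 to 156% on x, and 42 points lie at or above 100% on y.

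Libraries of 24.5 h all lay above those of 24 h for 2 genes, SORBI_3005G099500 and SORBI_3008G037200, named here because the count is small, where 12.3% of all genes did so. All libraries of 24 h lay above those of 24.5 h for 46 genes, against 9.14% of all genes. The choice took genes that were high in these 24 h libraries, so nothing is read from either share. SORBI_3005G099500 had 66.2, 43.1 and 68.4 TPM at 24 h and 92.7, 193 and 97.8 TPM at 24.5 h, and fell to between 13.6 and 34.6 TPM at 48 h. At 48 h the genes were near the 48 h control: the median difference was 0.01 on the log2 scale, and 114 genes lay within 0.5 of it. The 48 h libraries all exceeded the control for 37 genes (7.29% of all genes) and all fell short of it for 18 (9.65%), and since the choice used the 48 h libraries these are a description too. SORBI_3005G063300 stayed highest, 1.94 above the control on the log2 scale.

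The 24 h libraries were compared with the 48 h control only as a description, since the choice used them. All 3 libraries lay above the control for 148 of the 169 genes (13.1% of all genes), with a median difference of 1.57 on the log2 scale. The 24 h libraries also differed among themselves. Replicate 1 was the highest for 115 genes, replicate 3 for 39 and replicate 2 for 15. The coefficient of variation over the 3 libraries had a median of 22.6%, against 12.3% over 15943 genes with a mean of at least 5 TPM, and in 7 genes the SD was larger than the mean.

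The primary root libraries of 24.5 h and 3 h were tested against the 48 h control, groups that the choice did not use. The 2 comparisons share the control, so their values are set side by side and not compared. Here and below a gene was called when its Benjamini-Hochberg adjusted p in limma was under 0.05, over all genes of the tissue, and its log2 change was over 1. At 24.5 h, 84 of the 169 genes were called higher, 49.7%, where 4.06% of all genes tested were. All 3 libraries exceeded the control in 102 genes, against 13.7% of all genes. The median log2 change was 1.11, with the middle of the genes between 0.53 and 1.83, and that of all genes was -0.01. SORBI_3004G110200 alone was called lower (1.69% of all genes), with 3.6, 0 and 8.94 TPM at 24.5 h and 13.2, 21.2 and 7.39 TPM in the control, which overlap. Without the primary root 24.5 h replicate 3, whose LHCB5 was raised, 80 genes were called higher (3.36% of all genes), 75 of them among the 84. The 2 called lower, given without a share over all genes, were SORBI_3004G110200 and, added, SORBI_3003G143000 (log2 change -1.02, SE 0.29, adjusted p = 0.027). Without replicate 1 of 24.5 h 73 genes were called higher (5.6% of all genes), and without replicate 2 it was 87 (4.91%). The part of the leaf-gene signal of replicate 3 in the result was not tested further.

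At 3 h, 32 of the 169 genes were called higher, 18.9%, where 1.79% of all genes were. All 3 libraries exceeded the control in 54 genes, against 16.2% of all genes, and the median log2 change was 0.36 against 0.00 over all genes. Without the primary root 3 h replicate 3 the median was 0.59 and 34 genes were called higher (1.94% of all genes), 29 of them among the 32. That library had 133 TPM of LHCB5 and 402 TPM of PPDK2, the highest in primary root after the 24.5 h replicate 3, and the part of this signal in the result was not tested further. SORBI_3002G250000 was called lower (1.17% of all genes), with 0, 0.426 and 1.15 TPM at 3 h against 1.15, 15.7 and 4.82 TPM in the control. These groups touch at 1.15 TPM, and the control libraries differ more from each other than those of 3 h do.

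**Figure D3:**
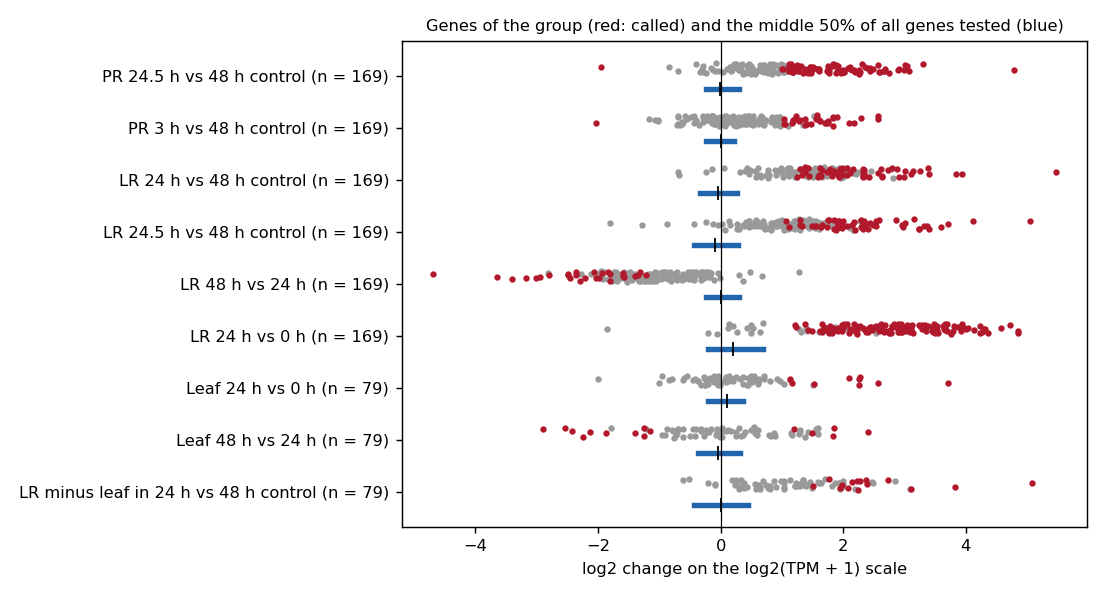
Log2 change on the log2(TPM + 1) scale (x axis) of each of the 169 genes, or of the 79 with enough signal in leaf, in 9 comparisons (rows), where PR is primary root and LR lateral root. Red points were called in limma, and the blue bar and black tick give the middle 50% and the median of all genes tested, which stay between -0.08 and 0.19 while the medians of the group reach 1.11 in primary root at 24.5 h and 1.66 in lateral root at 24 h.

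The largest changes at 24.5 h belonged to SORBI_3003G188200, SORBI_3005G063300 and SORBI_3004G288500. SORBI_3003G188200 had 0.454, 2.19 and 0.927 TPM at 0 h, 43.4, 26.9 and 30.0 TPM at 24 h, 36.9, 25.6 and 32.1 TPM at 24.5 h and 0.114, 0 and 0.155 TPM at 48 h. Its level at 24.5 h was far above the 0.116 to 0.225 TPM of the control, a log2 change of 4.79 (SE 0.26, adjusted p = 4.42e-09). At 3 h it had 2.12, 1.74 and 3.74 TPM and was already called higher than the control (log2 change 1.56, SE 0.26, adjusted p = 0.0013), at a level well below that of 24 h. SORBI_3005G063300 had 62.1, 44.1 and 41.8 TPM at 24 h, 54.0, 73.3 and 62.1 TPM at 24.5 h, and 3.65, 7.66 and 5.58 TPM in the control, a log2 change at 24.5 h of 3.31 (SE 0.37, adjusted p = 2.07e-05). At 48 h it still had 22.1, 26.3 and 22.5 TPM, above every control library. SORBI_3004G288500 had 31.6, 15.1 and 30.7 TPM at 24.5 h and 2.21, 1.99 and 1.86 TPM in the control, a log2 change of 3.08 (SE 0.21, adjusted p = 1.03e-07).

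The largest changes at 3 h belonged to SORBI_3001G093200, SORBI_3001G453200 and SORBI_3009G254700, which reached their highest or near highest level early. SORBI_3001G453200 had 26.5, 29.8 and 24.7 TPM at 3 h, 11.6, 19.7 and 23.0 TPM at 24 h and 4.07, 2.71 and 4.59 TPM in the control. Its log2 change at 3 h was 2.57 (SE 0.30, adjusted p = 5.29e-05), and no library of 3 h overlapped those of 24 h. SORBI_3009G254700 had 10.4, 13.8 and 12.3 TPM at 3 h against 1.57, 1.90 and 1.57 TPM in the control (log2 change 2.29, SE 0.43, adjusted p = 0.0032). SORBI_3001G093200 had 10.6, 12.2 and 3.44 TPM at 3 h and at most 0.557 TPM in the control (log2 change 2.57, SE 0.51, adjusted p = 0.0045). SORBI_3009G172500, which lay just inside the limit of the choice, had 154, 162 and 165 TPM at 3 h, above 78.5, 136 and 94.8 TPM at 24 h. These genes had risen by 3 h, and SORBI_3007G220000 had as well, with 70.2, 76.6 and 60.5 TPM there. It differed in recovery: at 24.5 h it was back at 24.3, 17.6 and 26.9 TPM, which overlapped the control at 22.2, 24.7 and 19.3 TPM (log2 change 0.04, adjusted p = 0.903).

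The lateral root libraries played no part in the choice. The median gene had a mean of 11 TPM at 3 h, 23.6 TPM at 24 h, 17.6 TPM at 24.5 h and 8.93 TPM at 48 h, and 6.73 TPM in the 48 h control. The genes took 0.744 to 1.03% of all TPM at 24 h and 0.229 to 0.313% in the control. At 24 h the levels of both root types were close. The median difference of lateral from primary root was -0.23 on the log2 scale, 92 genes lay within 0.5, 1 gene was more than 1 higher (SORBI_3002G352000) and 17 were more than 1 lower in the lateral root.

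At 24 h in the lateral root, 59 of the 169 genes were called higher than in the 48 h control and 0 lower, where 1.47% and 2.15% of all genes were. Without an adjustment, 126 genes had p under 0.05, a count without a share over all genes, so nothing is read from it. All 3 libraries exceeded the control in 154 genes, against 17.4% of all genes. The median log2 change was 1.66, against -0.04 over all genes, and 165 of the 169 changes were positive. The count rests on the spread of the tissue: without the leaf-like lateral root 0 h replicate 1, which is in neither group, 132 genes were called (3.93% of all genes). Without the 24 h replicate 1 it was 30 (0.695% of all genes), and without the 24 h replicate 2 it was 29 (0.708%). Without the control replicates 2 and 3 it was 28 (0.678%) and 33 (0.972%). The largest change was again that of SORBI_3003G188200, with 63.1, 47.4 and 30.8 TPM at 24 h and 0, 0 and 0.122 TPM in the control, 5.47 on the log2(TPM + 1) scale (SE 0.35, adjusted p = 4.99e-07). SORBI_3004G190100 had 31.1, 25.2 and 16.5 TPM against 1.43, 0.262 and 0.648 TPM (log2 change 3.84, SE 0.31, adjusted p = 3.52e-06). SORBI_3001G348300 had 15.2, 14.4 and 13.4 TPM at 24 h and was listed at 0 in all control libraries, so no fold is given (adjusted p = 3.89e-05).

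At 24.5 h in the lateral root, against the same control, 58 genes were called higher and 0 lower, where 2.41% and 2.33% of all genes were. Unadjusted, 97 had p under 0.05, again without a share over all genes and not read further. All 3 libraries exceeded the control in 140 genes, against 17.0% of all genes, and the median log2 change was 1.37 against -0.08 over all genes. Without the lateral root 0 h replicate 1, 107 genes were called higher (4.69% of all genes). The 1 called lower, given without a share over all genes, was SORBI_3004G110200. That gene was also called lower in the primary root at 24.5 h, where its libraries overlapped those of the control. Its log2 change in the lateral root was -1.80 (SE 0.41, adjusted p = 0.0033), from 26.9, 13.0 and 14.8 TPM in the control to 4.15, 3.51 and 5.28 TPM, with no overlap. Leaving out a single library of the groups compared moved the count to 33, 34 and 28 (24.5 h replicates 1, 2 and 3), where 1.6, 1.62 and 1.56% of all genes were called. It moved to 28 and 30 (control replicates 2 and 3), where 1.4 and 1.81% of all genes were. Libraries of 24.5 h all lay above those of 24 h for 12 genes (10.7% of all genes), and below them for 47 (17.2% of all genes).

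From 24 h to 48 h in the lateral root, 28 genes were called lower and 0 higher, where 0.596% and 1.52% of all genes were. Unadjusted, 84 had p under 0.05, which also has no share over all genes beside it and is not read further. All 3 libraries of 48 h fell below those of 24 h in 133 genes, against 20.6% of all genes, with a median log2 change of -1.21 against 0.00. Without the lateral root 0 h replicate 1, 93 genes were called lower (2.39% of all genes). Without the 24 h replicates 1 or 2 the counts were 16 (0.35% of all genes) and 18 (0.333%). Without the 48 h replicates 2 or 3 they were 18 (0.307%) and 17 (0.389%). SORBI_3003G188200 fell by 4.69 on the log2 scale (adjusted p = 1.68e-06) to 0.755, 0.732 and 0.873 TPM, which stayed above its control. SORBI_3005G215500 fell by 3.41 (adjusted p = 0.037), from an uneven 3.91, 41.0 and 34.8 TPM to 0.771, 0.595 and 1.18 TPM. At 48 h the lateral root sat slightly above the control. The median difference was 0.39 on the log2 scale, all libraries exceeded the control in 62 genes (11.1% of all genes), and all fell short of it in 11 (14.8%).

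Against 0 h, 145 genes were called higher at 24 h in the lateral root and 0 lower, where 8.05% and 1.38% of all genes were. All 3 libraries exceeded those of 0 h in 148 genes, against 18.0% of all genes, with a median log2 change of 2.61 against 0.19. With median-of-ratios scaling, which centres the libraries on each other, these medians were 2.56 and 0.00. Without the leaf-like 0 h replicate 1, 154 genes were called (5.47% of all genes), 141 of them among the 145, and the median log2 change was 1.95. In a fit of the groups 0 h and 24 h alone, 0 of the 169 genes were called (0.00432% of all genes), and their lowest adjusted p was 0.055. In that fit 142 had an unadjusted p under 0.05, a count without a share over all genes, so nothing is read from it. The largest changes in the fit of all groups, those of SORBI_3001G193400, SORBI_3001G466000 and SORBI_3001G301300, came with 0.211, 0.112 and 0.0779 TPM in that replicate. Without it SORBI_3001G193400 was 3.18 higher on the log2 scale (SE 0.41, adjusted p = 5.92e-05), SORBI_3001G466000 3.6 (SE 0.31, adjusted p = 1.54e-06) and SORBI_3001G301300 2.78 (SE 0.37, adjusted p = 7.57e-05). SORBI_3001G193400 had 394, 359 and 306 TPM at 24 h and 522, 480 and 448 TPM at 24.5 h, so its libraries of 24.5 h lay above those of 24 h.

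In leaf most of these genes were barely expressed. Only 79 of the 169 had at least 1 TPM in at least 3 leaf libraries, and the median gene had a mean of 0.352 TPM at 24 h. The 90 others were not tested, so the counts in leaf describe the expressed genes only. The level at 24 h was lower in leaf than in primary root for 153 genes, with a median difference of -3.73 on the log2 scale over all 169, and 16 genes were higher in leaf. From 0 h to 24 h, 9 of the 79 genes were called higher and 0 lower, where 1.28% and 1.14% of all leaf genes were. All 3 libraries were higher in 19 genes, against 18.1% of all genes, and the median log2 change of 0.14 was close to the 0.11 of all genes, which median-of-ratios scaling took to -0.03. Without the leaf 0 h replicate 3 the count was 4 (0.523% of all leaf genes). The called genes were led by SORBI_3003G188200, with 1.25, 0.266 and 0.441 TPM at 0 h and 18.3, 17.1 and 25.1 TPM at 24 h (log2 change 3.71, SE 0.74, adjusted p = 0.0088). SORBI_3007G220000 had 2.42, 3.08 and 2.73 TPM at 0 h and 19.7, 26.9 and 17.4 TPM at 24 h (log2 change 2.56, SE 0.34, adjusted p = 0.000573). SORBI_3001G086800 was mainly a leaf gene, with 110, 89.3 and 78.1 TPM at 0 h and 686, 193 and 676 TPM at 24 h (log2 change 2.28, SE 0.50, adjusted p = 0.013), while it did not pass 17.6 TPM in any primary root library.

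From 24 h to 48 h in leaf, 10 of the 79 genes were called lower (12.7%) and 5 higher (6.33%), where 3.63% and 4.45% of all leaf genes were, so the share called higher was near that of all genes. All libraries were lower in 20 genes, against 17.2% of all genes, and the median change was 0.00 against -0.05. SORBI_3003G188200 fell by 2.90 on the log2 scale (adjusted p = 0.012) to 0.944, 2.82 and 1.94 TPM. SORBI_3009G172500 fell by 2.53 (adjusted p = 0.00253), from 17.0, 17.6 and 12.9 TPM to 1.77, 1.70 and 2.21 TPM, and SORBI_3004G097300 by 2.43 (adjusted p = 0.00182), from 15.7, 7.83 and 11.2 TPM to 0.853, 2.06 and 1.05 TPM. The 5 genes called higher were SORBI_3006G102800, SORBI_3006G211701, SORBI_3001G147900, SORBI_3003G387500 and SORBI_3002G005400, and of these only SORBI_3006G211701 had libraries that did not overlap.

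Whether the response of 24 h against the 48 h control differed between lateral root and leaf was tested as an interaction over the 79 genes. The change was called larger in lateral root for 15 genes and smaller for 0, where 2.70% and 2.34% of 18565 genes were. The median difference of the changes was 1.3 on the log2 scale, against 0.00 over all genes. Without the lateral root 0 h replicate 1 the count was 30 (6.09% of all genes). It was 7 without the lateral root 24 h replicate 1 (1.5% of all genes), and 7 and 8 without the lateral root control replicates 2 and 3 (1.47 and 2.16%). It was 9 without the leaf 24 h replicate 1 (1.59%) and 9 without the leaf control replicate 1 (1.28%). The latter library exceeded both other leaf control libraries in 43 of the 79 genes, and by more than 1 on the log2 scale in 14, where 8.68% of all leaf genes did so. SORBI_3003G188200 shows this, with 31.3, 0.598 and 0.301 TPM in the leaf control. Its interaction of 3.11 (SE 0.87, adjusted p = 0.030) rests in part on that library, whose role was not tested further.

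SORBI_3006G211701 had the largest interaction, 5.07 (SE 1.36, adjusted p = 0.023), and its directions were opposite. In lateral root it had 88.0, 55.6 and 94.2 TPM at 24 h and 27.6, 3.88 and 8.86 TPM in the control. In leaf it had 166, 88.9 and 155 TPM at 24 h and 1101, 469 and 497 TPM in the control, with no overlap in either tissue. In primary root it followed the choice, with 10.3, 6.15 and 9.81 TPM at 0 h and 141, 108 and 119 TPM at 24 h. SORBI_3005G215500 had an interaction of 3.82 (SE 1.12, adjusted p = 0.038), at 3.91, 41.0 and 34.8 TPM in lateral root at 24 h and at most 0.0848 TPM in leaf at 24 h.

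Among the named genes were 3 of the transcription factors in the study's sorghum network, bZIP24 (SORBI_3001G396400, a basic leucine zipper protein), C3H9 (SORBI_3003G236701, a CCCH zinc finger protein) and MYB124 (SORBI_3003G270300, a MYB protein). bZIP24 had 1.42, 0.716 and 3.97 TPM at 0 h, 8.58, 5.86 and 3.1 TPM at 3 h, 8.28, 9.41 and 6.61 TPM at 24 h and 1.34, 1.2 and 1.33 TPM at 48 h in the primary root. It was called higher than the control (0.433, 1.92 and 0.409 TPM) at 3 h (log2 change 1.84, SE 0.39, adjusted p = 0.0077) and at 24.5 h (1.5, SE 0.39, adjusted p = 0.015). Its libraries of 3 h overlapped those of 0 h, so an early rise is not read from the call at 3 h. C3H9 had 13.5, 6.61 and 5.17 TPM at 3 h, which reached down to the control at 5.53, 5.63 and 4.88 TPM, and 17.8, 17.2 and 13.2 TPM at 24 h. At 24.5 h it was called higher (log2 change 1.11, SE 0.29, adjusted p = 0.016), and at 3 h it was not (0.47, adjusted p = 0.352). MYB124 already had 13.9, 15.8 and 21.6 TPM at 0.5 h, above 10.9, 8.12 and 7.96 TPM at 0 h, and 34.5, 21.1 and 23.4 TPM at 24 h. Its log2 change against the control was 0.98 at 24.5 h (SE 0.22, adjusted p = 0.0069), just under the change of 1 needed for a call. Without the 24.5 h replicate 3 it was called higher (1.18, SE 0.23, adjusted p = 0.0037).

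In the lateral root, bZIP24 had 17.8, 11 and 12.3 TPM at 24 h against 4.54, 3.73 and 2.63 TPM in the control (log2 change 1.66, adjusted p = 0.168). C3H9 had 14, 12.4 and 11.7 TPM against 5.88, 3.64 and 2.37 TPM (1.52, adjusted p = 0.090), and MYB124 had 25.1, 15.6 and 18.4 TPM against 8.5, 6.96 and 5.95 TPM (1.33, adjusted p = 0.160). None of these groups overlapped, and without the lateral root 0 h replicate 1 each was called, at adjusted p = 0.044, 0.011 and 0.00205. In leaf the highest value of the 3 factors was 1.31 TPM, that of MYB124 in a 3 h library.

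**Figure D4:**
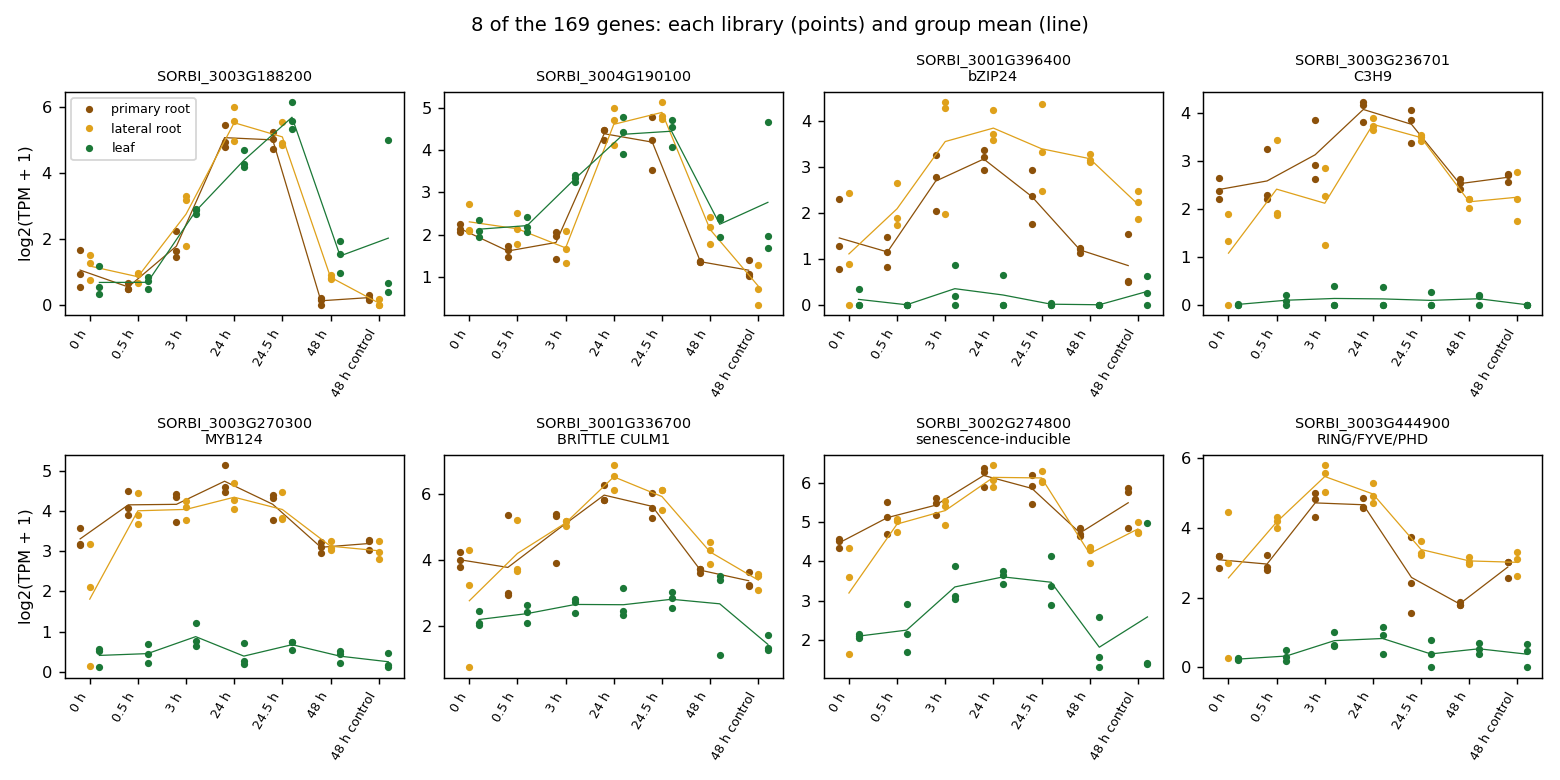
Log2(TPM + 1) of 8 of the 169 genes in each library (points) with group means (lines) in primary root (brown), lateral root (yellow) and leaf (green), by group. SORBI_3003G188200 and SORBI_3004G190100 rise in all 3 tissues by 24 h, and the 3 transcription factors rise in both root types and reach at most 1.31 TPM in leaf.

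A table of the study describes 3 further genes by their rice counterparts, and they were chosen here after their values were seen. BRITTLE CULM1 (SORBI_3001G336700) is a COBRA-like protein that rice needs for the cellulose of its secondary walls. It had 14.9, 17.8 and 12.6 TPM at 0 h, 75.7, 54.9 and 55.1 TPM at 24 h, 63.5, 46.5 and 37.5 TPM at 24.5 h and 12.0, 12.3 and 11.1 TPM at 48 h in the primary root. At 24.5 h it was called higher than the control (8.27, 11.3 and 8.46 TPM, log2 change 2.26, SE 0.48, adjusted p = 0.0044). In lateral root it had 116, 92.0 and 68.9 TPM at 24 h against 10.4, 10.8 and 7.40 TPM (log2 change 3.14, SE 0.61, adjusted p = 0.0062), and in leaf it stayed between 1.13 and 10.4 TPM.

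The senescence-inducible chloroplast protein (SORBI_3002G274800), of a kind that acts in chlorophyll breakdown in rice, was expressed in roots. It had 19.1, 22.0 and 22.7 TPM at 0 h, 82.6, 58.9 and 76.0 TPM at 24 h and 24.7, 23.9 and 27.7 TPM at 48 h in the primary root. Its control libraries were uneven, at 57.4, 53.4 and 27.6 TPM, and its level at 24.5 h (73.0, 42.8 and 58.9 TPM) overlapped them (log2 change 0.37, adjusted p = 0.359). In leaf it had 3.13, 3.43 and 3.25 TPM at 0 h and 11.5, 12.5 and 9.62 TPM at 24 h, with no overlap (log2 change 1.51, SE 0.66, adjusted p = 0.172). The RING/FYVE/PHD zinc finger gene (SORBI_3003G444900), of a family that includes ubiquitin ligases, had 6.25, 8.23 and 8.22 TPM at 0 h, 27.5, 31.3 and 18.9 TPM at 3 h and 27.8, 22.6 and 23.1 TPM at 24 h in the primary root. It was called higher than the control at 3 h (log2 change 1.84, SE 0.35, adjusted p = 0.0036), while 0.5 h after nitrate was returned it had 12.3, 1.98 and 4.41 TPM, around the control at 7.13, 7.22 and 4.97 TPM. It was therefore both among the early genes and among those whose level had left the 24 h range by 24.5 h, as in the lateral root, where it went from 38.4, 25.2 and 29.2 TPM at 24 h to 8.75, 8.38 and 11.4 TPM at 24.5 h.

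The genes of highest level had neighbouring numbers in their identifiers. SORBI_3001G300800, the highest at 24 h in the primary root, had 155, 177 and 146 TPM at 0 h, 521, 338 and 481 TPM at 24 h and 100, 105 and 140 TPM at 48 h. SORBI_3001G301300 had 99.6, 113 and 109 TPM at 0 h, 519, 328 and 457 TPM at 24 h and 92.5, 95.0 and 132 TPM at 48 h. Their control was uneven, with 345, 310 and 143 TPM for SORBI_3001G300800 and 301, 300 and 145 TPM for SORBI_3001G301300. At 48 h both lay below every control library. The tissues told them apart: in leaf SORBI_3001G300800 reached 85.8, 80.5 and 89.8 TPM at 24 h and SORBI_3001G301300 1.11, 0.974 and 0.503 TPM. The deposited TPM do not show how reads shared by near-identical genes were assigned, and levels of such neighbours are uncertain.

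In all, 31 of the 169 genes (18.3%) had another of the group within 5 identifiers, and 1063 of 23017 other tested genes (4.62%) had one of the group that near. They formed 13 runs, of which 11 were pairs, 1 held 3 genes (SORBI_3001G059500, SORBI_3001G059600 and SORBI_3001G059700) and 1 held 6. Identifiers starting SORBI_3005G gave 22 of the genes, 1.77% of the 1245 tested with that start. The other main starts gave between 0.415 and 0.923%.

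**Figure D5:**
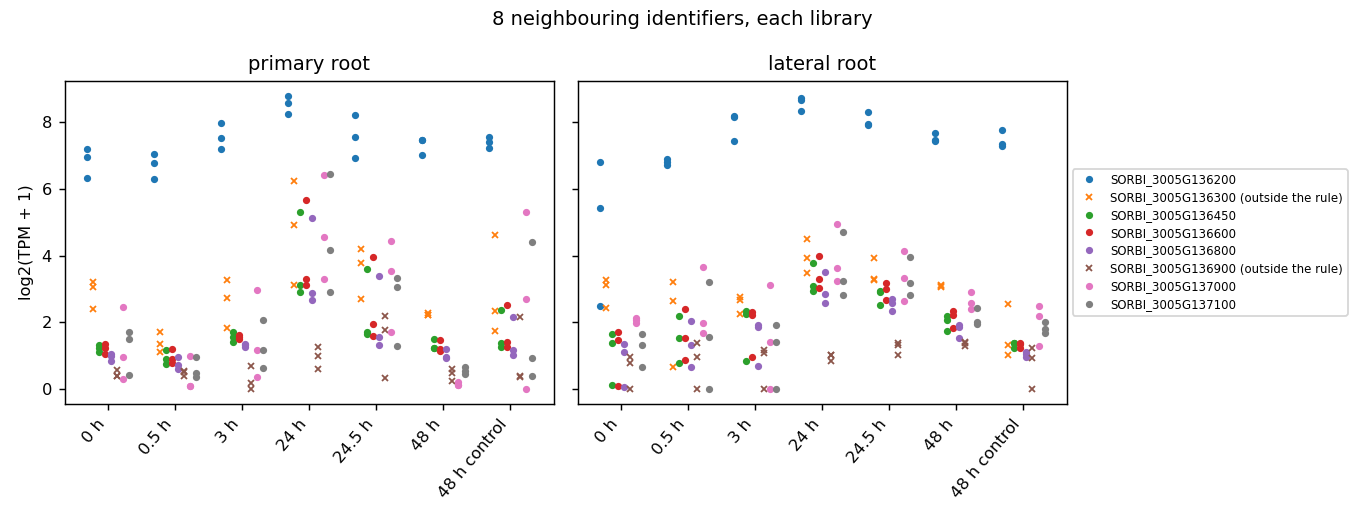
Log2(TPM + 1) of 8 genes with neighbouring identifiers in each primary root (left) and lateral root (right) library, by group, where crosses mark the 2 genes that did not meet the conditions. SORBI_3005G136200 lies far above the others, of which all but SORBI_3005G136900, at 0.529 to 1.4 TPM, have 1 library (replicate 2) well above the other two at 24 h in primary root.

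The run of 6 spans SORBI_3005G136200 to SORBI_3005G137100. SORBI_3005G136200 was the most abundant, with 78.6, 144 and 122 TPM at 0 h, 380, 302 and 438 TPM at 24 h and 128, 176 and 174 TPM at 48 h in primary root. The 5 others shared 1 high library at 24 h. SORBI_3005G137000 had 8.91, 83.3 and 22.3 TPM, SORBI_3005G137100 had 6.58, 85.3 and 17.1 TPM, and SORBI_3005G136450 had 6.47, 38.2 and 7.65 TPM. SORBI_3005G136600 and SORBI_3005G136800 had 49.1 and 33.9 TPM in replicate 2, against 7.63 and 8.90 TPM and 5.43 and 6.29 TPM in replicates 1 and 3. These 5 are among the 7 genes whose SD passed the mean at 24 h, the others being SORBI_3005G215500 and SORBI_3K024300. Over the 21 primary root libraries SORBI_3005G136600 stood at 0.901 to 1.3 times and SORBI_3005G136800 at 0.667 to 0.914 times the level of SORBI_3005G136450, so these 3 moved almost in step and cannot be counted as separate observations. In the primary root 48 h control, replicate 2 was also the highest for all 5 genes. It had 38.2 TPM of SORBI_3005G137000 and 20.3 TPM of SORBI_3005G137100, above replicates 1 and 3 of 24 h. The 3 other genes had 3.47 to 4.69 TPM in it, below all their 24 h libraries. In the lateral root at 24 h, replicate 2 was again the highest for all 5 genes, with SORBI_3005G137000 at 11.4, 29.7 and 8.40 TPM. The label numbers do not tie replicate 2 of one tissue to replicate 2 of the other.

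The genes of nitrogen transport, nitrate assimilation, amino acid and carbon metabolism in the study's network number 42, and 0 of them are in the group, from which the 4 genes of high-affinity uptake had been left out. All 4 were called higher at 24 h than at 0 h and lower at 48 h than at 24 h in the primary root, as in NAR2.1, which had 101, 128 and 112 TPM at 0 h, 554, 345 and 418 TPM at 24 h and 44.7, 48.4 and 51.4 TPM at 48 h. As 3 of them met the conditions, these calls describe the choice. Of the 38 others, 35 were tested. From 0 h to 24 h, 1 of these was called higher and 5 lower, where 2.38% and 2.12% of all genes were. NPF4.9 (SORBI_3006G130600), of the nitrate and peptide transporter family, rose from 1.05 to 3.20 TPM (log2 change 1.02, SE 0.22, adjusted p = 0.0075). Its mean did not fall back afterwards, at 3.47 TPM at 48 h, and was 2.73 TPM in the 48 h control. The 5 that fell were GS1-1, a cytosolic glutamine synthetase (SORBI_3001G451500, 792 to 202 TPM, log2 change -1.98), G6PD1, a glucose-6-phosphate dehydrogenase that yields NADPH (SORBI_3006G030800, 299 to 76.1 TPM, -1.96), RFNR, the root ferredoxin-NADP reductase (SORBI_3001G067100, -1.34), the ammonium transporter AMT1.3 (SORBI_3004G217800, -1.14) and the glutamate dehydrogenase GDH1 (SORBI_3001G059100, -1.0). Their adjusted p ran from 2.00e-05 to 0.028. In the 48 h control GS1-1 had a mean of 241 TPM, near its 24 h level, and AMT1.3 had 68.4 TPM, below its 112 TPM at 24 h. G6PD1, RFNR and GDH1 stood higher in the control than at 24 h, at 196, 458 and 111 TPM. The NPF4.9 call was lost without the 0 h replicate 2 or 3 or the 24 h replicate 1 or 3, and with median-of-ratios scaling 3 genes were called lower.

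From 24 h to 48 h, 4 of the 35 were called higher and 3 lower, where 1.96% and 2.77% of all genes were. GDH2 (SORBI_3006G165400) rose by 1.85 on the log2 scale, G6PD1 by 1.39, GDH1 by 1.31 and RFNR by 1.04. NR2, a nitrate reductase (SORBI_3004G312500), fell by 1.36, AMT1.3 by 1.52 and AspAT, an aspartate aminotransferase (SORBI_3006G243200), by 1.56. The comparison shares its 24 h libraries with that of 24 h against 0 h. NR2 had the course nearest to the group among them, with a mean of 155 TPM at 0 h, 284 TPM at 24 h and 112 TPM at 48 h, but its change by 24 h was 0.92 on the log2 scale (adjusted p = 0.0996).

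The conditions of the choice cut through a continuum. A further 187 genes failed only the difference of 24 h from 0 h, 133 only that of 48 h from 24 h, 27 only the level, 25 only the limit at 0.5 h and 10 only the overlap. For the difference from 0 h, SORBI_3009G172500 and SORBI_3001G339600 lay just inside at 1.2 and 1.21, and SORBI_3001G406700 and SORBI_3005G112000 just outside, both at 1.19. For the fall by 48 h, SORBI_3001G050000 and SORBI_3005G104800 were just inside, both at -1.0, and SORBI_3006G066500 and SORBI_3007G223600 just outside, both at -0.97. At 0.5 h, SORBI_3007G172100 and SORBI_3008G107200 were just inside at 1.00 and 0.97 in size, and SORBI_3001G049700 and SORBI_3002G001800 outside at 1.02 and 1.03. The level at 24 h was 5.09 TPM in SORBI_3001G012700 and 5.21 TPM in SORBI_3001G348200, and 4.94 TPM in SORBI_3003G011600 and 4.9 TPM in SORBI_3003G231800. The gap between the lowest library of 24 h and the highest of 0 h was 0.884 TPM in SORBI_3K024300 and 0.955 TPM in SORBI_3004G004500, and -0.0499 TPM in SORBI_3005G101500 and -0.0609 TPM in SORBI_3007G070400.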

How the data were processed

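Poly(A) RNA of the 63 libraries was sequenced in pairs on an Illumina instrument. The authors trimmed reads with Trimmomatic, aligned them to the BTx623 genome with STAR and assembled transcripts with StringTie, per the labels and the methods, and deposited TPM per gene, 1 table per tissue. Every sample column was used (0 left out). TPM sum to a fixed total per library, so that a rise of some genes lowers others, and keep no depth.

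The members, gene lists and tests were chosen with earlier results of these data known. A gene entered the test of a tissue when 3 or more of its libraries reached 1 TPM. Values of log2(TPM + 1) were fitted in limma 3.58.1 (R 4.3.3, moderated with a trend), using the 7 groups of the tissue jointly, with Benjamini-Hochberg adjustment over all genes tested. A gene was called at an adjusted p under 0.05 and a log2 change over 1. The scale understates the change of low genes. The files hold TPM, so a count test was not used. Lateral root and leaf were fitted together for the interaction. The fits were tested on simulated data with the same spread in every group and no outlying library. That test therefore says nothing about counts that move with the lateral root 0 h replicate 1. P-values rest on the spread within groups, estimated over all groups of the fit and moderated over genes, where each library is a pooled sample.

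Genes described in full were those of the study's network, the 3 called genes with the largest change in each comparison and those next to a limit of the choice. Planned parts of this rule that needed product names gave none. The network lists come from the study's supplementary tables. Alternatives were the pseudocount, the filter, the scaling, a replicate block, the trend, the groups in the fit, the threshold and each library left out. Those for the network genes and for the conditions of the choice were added after seeing the data. Descriptions used Python 3.11.15 with pandas 2.3.3 and NumPy 2.4.6.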

Additional observations from a re-analysis of the deposited data

Results flagged for a closer look

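The change from the 48 h control to 24 h differed between lateral root and leaf, by the interaction in limma, in 4 of the genes described in full, each larger in lateral root. The difference of the log2 changes was 5.07 for SORBI_3006G211701 (SE 1.36, adjusted p = 0.0233), whose libraries of 24 h were all above the control in lateral root and all below it in leaf, and 3.82 for SORBI_3005G215500 (SE 1.12, adjusted p = 0.0378). It was 3.11 for SORBI_3003G188200 (SE 0.875, adjusted p = 0.0301) and 2.22 for SORBI_3004G190100 (SE 0.609, adjusted p = 0.0263), which both had 1 high leaf control library (31.3 and 24.3 TPM).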

How the results depend on the processing

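Counts for the primary root moved less than those for lateral root. At 24.5 h the 84 became 65 in a fit of the groups compared (2.34% of all genes) and 67, of 137 tested, at a mean of at least 5 TPM (3.37%). With a library left out the count ran from 71 to 87 of 169, where 3.05 to 5.6% of all genes were called. At 3 h the 32 became 36 with a pseudocount of 0.1 (2.07% of all genes). The range with a library left out was 27 to 34, where 1.35 to 2.17% of all genes were called. Those for lateral root moved further. At 24 h against the control the count of 59 became 23 with a pseudocount of 0.1 (0.851% of all genes) and 37 at a mean of at least 5 TPM (1.2%). It became 94 with quantile normalization (2.4%) and 137 in a fit of the groups compared (3.92%). With a library left out it ran from 28 to 132, where 0.678 to 3.93% of all genes were called. At 24.5 h, 58 became 26 with a pseudocount of 0.1 (1.73% of all genes) and 112 in a fit of the groups compared (4.56%). The range was 28 to 107, where 1.4 to 4.69% of all genes were called. From 24 h to 48 h, 28 became 18 with a pseudocount of 0.1 (0.406% of all genes) and 18 at a mean of at least 5 TPM (0.585%). It became 60 with quantile normalization (1.56%) and 101 in a fit of the groups compared (2.6%). The range was 16 to 93, where 0.307 to 2.39% of all genes were called. At 24 h against 0 h, 145 became 0 in a fit of the groups compared (0.00432% of all genes). The range was 100 to 154, where 2.79 to 20.5% of all genes were called. In leaf the range was 4 to 11 for 24 h against 0 h, where 0.523 to 1.6% of all genes were called. It was 8 to 12 for 48 h against 24 h, where 2.96 to 3.93% were. The interaction count of 15 became 37 without a filter (1.38% of all genes) and 8 at a mean of at least 5 TPM (3.55%). The range was 7 to 30, where 1.28 to 6.09% of all genes were called. For the network genes, 1 higher became 0 at a mean of at least 5 TPM and 0 to 1 with a library left out, and 5 lower became 3 with median-of-ratios scaling (chosen after seeing the data). The cause of these moves was not tested. Of the settings run for single named genes, 2457 left the call as it was, 100 added a call and 208 lost one, and 0 turned its direction.

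The replicate numbers did not pair the samples, since correlations of same-numbered deviations had medians near 0. With the replicate number as a block the counts, in the order of the report, were 83, 31, 57, 55, 28, 146, 9, 10 and 14, and no count moved by over 1.5 times. The shares of all genes, in the same order, were 3.97, 1.76, 1.43, 2.35, 0.592, 7.99, 1.12, 3.55 and 2.42%.

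The genes meeting the conditions numbered 202 with median-of-ratios scaling, 168 of them among the 169, and 147 to 215 with a library left out, of which at least 128 were among the 169. This was computed after seeing the data. With 3 libraries per group and TPM without depth, low genes are the least certain.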
